A study of Mus musculus with 2 samples.

Results

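miR-132 and miR-212 are microRNAs (miRNAs) cut from 2 neighbouring hairpins, and each hairpin can give a mature miRNA from its 5′ side (the 5p arm) and its 3′ side (the 3p arm). They were followed here in 2 small RNA libraries, 1 nuclear and 1 cytoplasmic, of dendritic cells grown from C57BL/6 mouse bone marrow and treated with lipopolysaccharide (LPS), a bacterial cell wall molecule that activates Toll-like receptor 4. The cells had been kept for 7 days with GM-CSF and IL-4, and both fractions came from LPS-treated cells, and no untreated cells were analysed here. The nuclear library was made from the pellet left after the cells were swelled in a buffer with the detergent NP40 and centrifuged, and the cytoplasmic library from the cytoplasmic fraction of the same procedure. The labels state neither the dose and duration of the LPS treatment nor the number of mice or any pooling. The stated aim was to find small RNAs that innate immune cells hold mainly in the nucleus.

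Of 538100 distinct sequences in the deposited table, 130 matched the sense strand of either hairpin, over their full length or with up to 3 unmatched bases at the 3′ end. The nuclear library held 76 of them with 790 reads in all, and the cytoplasmic library 110 with 1259 reads. None of the 130 matched another annotated transcript, and the same sequences of the table read backwards gave no match to either hairpin. Each hairpin gave reads from both arms, which makes 4 arms to compare.

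miRNAs are made from long primary transcripts. Drosha cuts out a hairpin in the nucleus, Exportin-5 carries it to the cytoplasm, Dicer removes the loop, and an Argonaute protein keeps mainly 1 strand of the resulting duplex, the guide, while the passenger strand is usually lost. The guide finds its target mRNAs chiefly through its seed, the bases 2 to 8 from its 5′ end. The miR-132 and miR-212 gene is known as a target of the transcription factor CREB, best studied in neurons, and in myeloid cells its miRNAs are known to be induced through Toll-like receptors and to limit inflammatory signalling.

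Both hairpins lie on the plus strand of chromosome 11 (GRCm38), in intron 1 (75172598 to 75173977) of the gene 1700016P03Rik, which runs from 75172560 to 75177633. Mir212 (positions 75173388 to 75173478) comes first and Mir132 (75173682 to 75173747) follows after 203 bases. The hairpins are shown because the reads stack on the arms in them. They are RefSeq sequences of build GRCm38.p6, identical to those of GENCODE vM21, written 5′ to 3′ with the annotated mature arms in capitals.
Mir212: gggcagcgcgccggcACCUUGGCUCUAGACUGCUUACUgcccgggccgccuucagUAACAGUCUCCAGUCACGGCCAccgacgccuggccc
Mir132: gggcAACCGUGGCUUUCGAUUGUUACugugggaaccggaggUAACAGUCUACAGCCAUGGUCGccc

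The 4 mature arms are shown because their seeds, in capitals, set which arms are related. miR-132-3p and miR-212-3p have the same seed, and no other of the 1738 mature miRNAs in the RefSeq table has it.
miR-132-3p: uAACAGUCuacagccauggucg
miR-212-3p: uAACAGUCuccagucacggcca
miR-132-5p: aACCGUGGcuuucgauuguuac
miR-212-5p: aCCUUGGCucuagacugcuuacu
The 2 3p arms are identical over their first 9 bases and at 17 of 22 positions. Counted from the 5′ end, and with the base of miR-132-3p first, they differ by A10C, C14U, U17C, U20C and G22A. The seeds of miR-132-5p and miR-212-5p differ from each other and from that of the 3p arms, and each is the only one of its kind in the RefSeq table.

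The nuclear library held 2000019 reads and the cytoplasmic library 2041383, so the depths were close. Small nucleolar RNAs took 8.78% of the reads in the nuclear library and 0.273% in the cytoplasmic one, mitochondrial tRNAs 0.0601% and 0.155%, and mitochondrial rRNAs 0.166% and 0.191%, so the nuclear library also held RNA from outside the nucleus. Of the myeloid miRNAs, miR-223-3p had 392 nuclear and 612 cytoplasmic reads, miR-142-5p 3218 and 5565, miR-142-3p 393 and 677, and miR-342-3p 778 and 2478. Markers of other cell types were present too. The liver miRNA miR-122-5p had 287 and 24 reads and the muscle miRNA miR-1a-3p 108 and 7, both higher in the nuclear library. Another muscle miRNA, miR-133a-3p, had only 2 and 0 reads, and the neuronal miRNA miR-124a-3p had 21 and 25. Of the stromal miRNAs, miR-143-3p had 99 and 46 reads and miR-145a-5p 0 and 2. Their part in the results below was not tested. In RNA of many cells, fewer cells of a type and less RNA per cell cannot be told apart.

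The 4 arms did not share 1 distribution between the fractions. In RPM, miR-212-5p was the most cytoplasmic, miR-132-3p was also lower in the nuclear library, and miR-212-3p had nearly equal levels in both. These levels depend on the scaling of the libraries, while the differences between the arms do not. Levels are in RPM, reads scaled to the same total in each library, with exact (Clopper-Pearson) 95% intervals. The level ratio is the nuclear over the cytoplasmic level, with an interval conditional on the reads of both libraries. Each fraction is 1 library, so nothing here was checked against replicates and no p-value is given. The ratios compare these libraries, and with 1 library in each fraction the intervals cover counting error only. They treat the reads as independent. PCR copies of a molecule cannot be told apart without molecular identifiers, so the intervals may be too narrow.

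miR-132-3p, usually the guide of its hairpin, had 342 nuclear and 585 cytoplasmic reads, or 171 RPM (153 to 190.1) and 287 RPM (264 to 311). The 2 intervals do not overlap, and the cytoplasmic level was the higher. Its level ratio was 0.597 (0.521 to 0.683), a log2 ratio of -0.74. This is a 1.68-fold difference, short of the 2-fold used for a call, and it was not kept under other scalings: the log2 ratio was 0.16 (-0.04 to 0.35) with the miRNA total, -0.015 (-0.21 to 0.18) with TMM factors and -0.11 (-0.31 to 0.09) with the median of ratios. miR-132-5p, its partner on the other side of the hairpin, was the rarest arm, with 33 nuclear and 50 cytoplasmic reads, or 16.5 RPM (11.4 to 23.2) and 24.5 RPM (18.2 to 32.3). Its intervals overlap, and its level ratio of 0.674 (0.420 to 1.07) was not distinguishable from 1 at this depth. With reads that have 1 mismatch added, an alternative chosen after seeing the data, its log2 ratio was -0.75 and the interval excluded 0 (-1.42 to -0.12).

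miR-212-3p, with the same seed as miR-132-3p, had 226 nuclear and 208 cytoplasmic reads, or 113 RPM (98.7 to 129) and 102 RPM (88.5 to 117). The intervals overlap in RPM, with a log2 ratio of 0.15 (-0.13 to 0.43). With the same reads the interval lay above 0 under each of the 3 other scalings described below, so the near equality holds for RPM only. miR-212-5p had 189 nuclear and 416 cytoplasmic reads, or 94.5 RPM (81.5 to 109) and 204 RPM (185 to 224). The intervals lie far apart, and its level ratio was 0.464 (0.388 to 0.552), so the cytoplasmic level was 2.16-fold (1.81 to 2.57) the nuclear one.

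**Figure D1:**
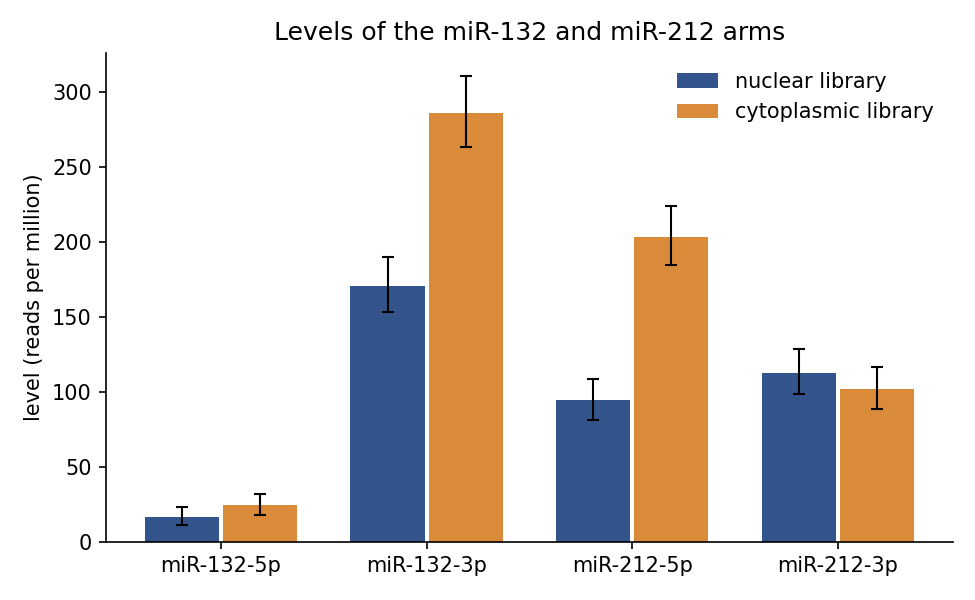
Levels of the 4 arms in RPM of each library (bars, 1 library each), with exact 95% intervals for counting error. miR-132-3p and miR-212-5p stand higher in the cytoplasmic library, while the intervals of miR-212-3p and of miR-132-5p overlap between the libraries.

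In the nuclear library the order was miR-132-3p, miR-212-3p, miR-212-5p and miR-132-5p. The intervals of the second and the third overlap. In the cytoplasmic library it was miR-132-3p, miR-212-5p, miR-212-3p and miR-132-5p, with no overlap between neighbours. Among all miRNA arms with a read, miR-132-3p ranked 78 in the nuclear and 75 in the cytoplasmic library, miR-212-5p 103 and 87, miR-212-3p 95 and 110, and miR-132-5p 186 and 172. The 4 arms together gave 0.0988% of nuclear and 0.0826% of cytoplasmic miRNA reads. Their levels were far below that of miR-155-5p (6109 and 4410 RPM), the LPS-induced miRNA that promotes inflammatory responses.

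Of the 4 arms, 1 was called lower in the nuclear library (miR-212-5p), 0 were called higher and 3 were neither. A call needed a 2-fold log2 ratio, with 0.5 reads added to each count, and an interval that excludes 1. Over the 222 miRNA arms that had 50 reads or more in sum, 28.4% were called lower and 12.2% higher, so 1 of 4 lower is near the background. These arms come from all annotated Mir hairpins without a further filter. They include joint entries for reads that match several hairpins, such as miR-3473b-3p with miR-3473e-5p (2287 nuclear and 388 cytoplasmic reads, called higher). The call of miR-212-5p rests on RPM: it ended under each of the 3 other scalings, and with the arm's most abundant sequence alone (-0.92). The median log2 ratio was -0.65 over the 4 arms and -0.63 over the 222. Of all arms, 55.4% had a lower log2 ratio than miR-132-5p (-0.56), 40.5% a lower one than miR-132-3p (-0.74), 24.8% a lower one than miR-212-5p (-1.11) and 79.3% a lower one than miR-212-3p (0.15).

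The level of each arm depends on how the libraries are scaled, because the miRNA share of all reads was 39.96% in the nuclear and 74.7% in the cytoplasmic library. Scaling to the miRNA total raised every log2 ratio by 0.90, TMM factors by 0.73 and the median of ratios by 0.64. The median log2 ratio of the 222 arms thereby moved from -0.63 to 0.27, 0.10 and 0.01. miR-212-3p was called higher in the nuclear library under the miRNA total, at a log2 ratio of 1.05 (0.77 to 1.33). It was at 0.88 (0.60 to 1.16) under TMM factors and 0.79 (0.51 to 1.06) under the median of ratios, short of a call. miR-212-5p was at -0.20 (-0.46 to 0.04) under the miRNA total and -0.38 (-0.64 to -0.13) under TMM factors. Under the median of ratios it was at -0.47 (-0.73 to -0.22). miR-212-5p was called under none of these scalings, but its interval stayed below 0 under TMM factors and the median of ratios. The split of all 222 arms, 27 higher and 63 lower with RPM, became 47 and 9 under the miRNA total, 41 and 13 under TMM factors and 40 and 17 under the median of ratios.

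**Figure D2:**
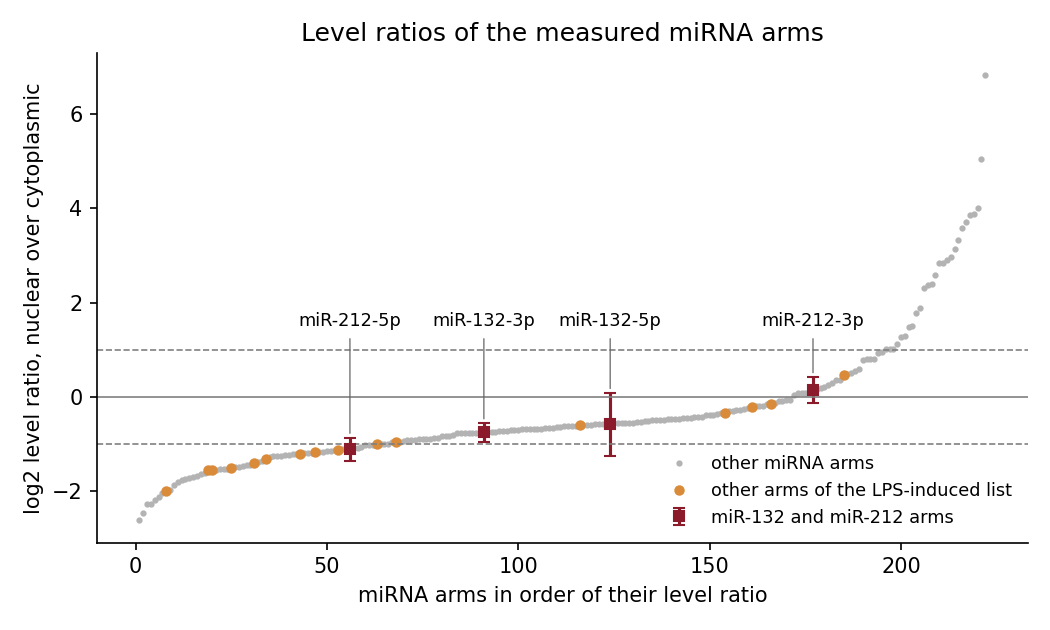
Log2 level ratio (nuclear over cytoplasmic RPM) of the 222 measured miRNA arms in rising order, with the miR-132 and miR-212 arms (squares, exact 95% intervals), the other arms of the LPS-induced list (orange) and dashed lines at 2-fold. miR-212-5p lies just under the lower dashed line and miR-212-3p near 0.

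The differences between the arms do not depend on the scaling, since both arms of a pair are counted in the same libraries. All 6 pairs of arms were compared by the ratio of their level ratios, with an exact conditional 95% interval and no correction for the number of pairs. The level ratio of miR-212-3p was 1.86-fold that of miR-132-3p (1.47 to 2.36). The level ratio of miR-212-5p was 0.418-fold that of miR-212-3p (0.321 to 0.544). It was also below that of miR-132-3p, at 0.777-fold, with an interval that comes close to 1 (0.621 to 0.971). The arms of miR-132 did not differ detectably, at 1.13-fold for 5p over 3p (0.690 to 1.83), and neither did miR-132-5p from miR-212-5p or from miR-212-3p, whose intervals hold 1 (0.420 to 1.14 for miR-212-5p over miR-132-5p, and 0.995 to 2.75 for miR-212-3p over miR-132-5p).

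Arm use of the miR-212 hairpin thus differed between the libraries. The 3p arm gave 226 of 415 nuclear reads, 54.5% (49.5 to 59.3), and 208 of 624 cytoplasmic reads, 33.3% (29.6 to 37.2). In the cytoplasmic library miR-212-5p was the more abundant arm by 416 reads to 208, and in the nuclear library the arms were close, 189 to 226. The direction of the difference did not rest on tailed reads, but the nuclear majority did. With full-length matches only, the 3p share was 45.1% (39.1 to 51.2) in the nuclear and 25.1% (21.1 to 29.5) in the cytoplasmic library, so that the 5p arm led in both. The miR-132 hairpin used its arms alike in both libraries, with 91.2% (87.9 to 93.9) of nuclear and 92.1% (89.8 to 94.1) of cytoplasmic reads from the 3p arm.

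The 2 hairpins gave similar totals in both libraries. miR-212 made up 52.5% (49.0 to 56.1) of the nuclear reads of both and 49.6% (46.8 to 52.4) of the cytoplasmic reads. Between the 2 arms with the shared 3p seed the picture was less even. Of all reads of these arms, 568 nuclear and 793 cytoplasmic, miR-212-3p gave 39.8% (35.7 to 43.9) in the nuclear and 26.2% (23.2 to 29.4) in the cytoplasmic library. These totals include 18 nuclear and 43 cytoplasmic reads of miR-132-3p that start at another base and so do not carry that seed. The summed level of the 2 arms with that seed was 284 nuclear and 388 cytoplasmic RPM, a level ratio of 0.731 (0.655 to 0.815). The intervals of the miR-212-3p share do not overlap between the libraries, and miR-132-3p was the larger part of the seed family in both fractions.

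**Figure D3:**
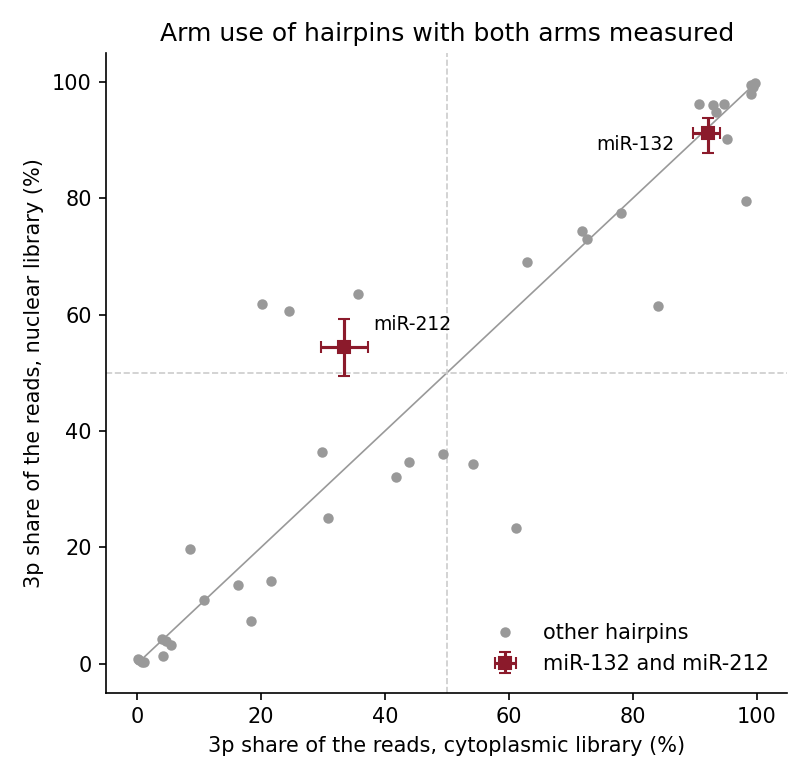
Share of a hairpin's reads that came from its 3p arm (percent), in the cytoplasmic (x) and nuclear (y) library, for 40 hairpins with both arms measured, with exact 95% intervals for miR-132 and miR-212. miR-132 lies on the line of equal shares, and miR-212 lies above it at 33.3% and 54.5%.

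A difference in arm use was common among miRNAs. Of 40 hairpins with at least 50 reads on each arm over both libraries, the interval of the ratio between the arms excluded 1 for 62.5% (25 hairpins), with the 5p arm the more cytoplasmic in 9 and the 3p arm in 16. miR-212 ranked 14 by the size of the log2 difference between its arms and 6 by the change of its 3p share, and miR-132 ranked 36 and 28. In 6 of the 40 the more abundant arm differed between the libraries. Besides miR-212 these were miR-139, miR-28a, miR-301, miR-3068 and miR-30b, named here after their values were seen. For miR-212 the interval of the nuclear 3p share (49.5 to 59.3) includes equal use of both arms, and with full-length matches only the 5p arm led in both libraries.

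Reads lay in sharp blocks on the arms. Between the annotated arms of miR-212 are 17 bases and between those of miR-132 are 15, and only 1 of the 130 sequences started more than 3 bases from the start of an annotated arm. It is shown because it covers the loop of miR-132.
Mir132 loop: cugugggaaccggaggua
It had 0 nuclear and 2 cytoplasmic reads, which count under miR-132-3p above, and a count of 0 allows up to 3 reads in the nuclear library. No sequence matched the antisense strand of either hairpin. The spliced transcript of the host gene 1700016P03Rik had 1 nuclear and 0 cytoplasmic reads, which is too few for a comparison. The intron outside the hairpins was not analysed here, since no genome sequence was used.

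**Figure D4:**
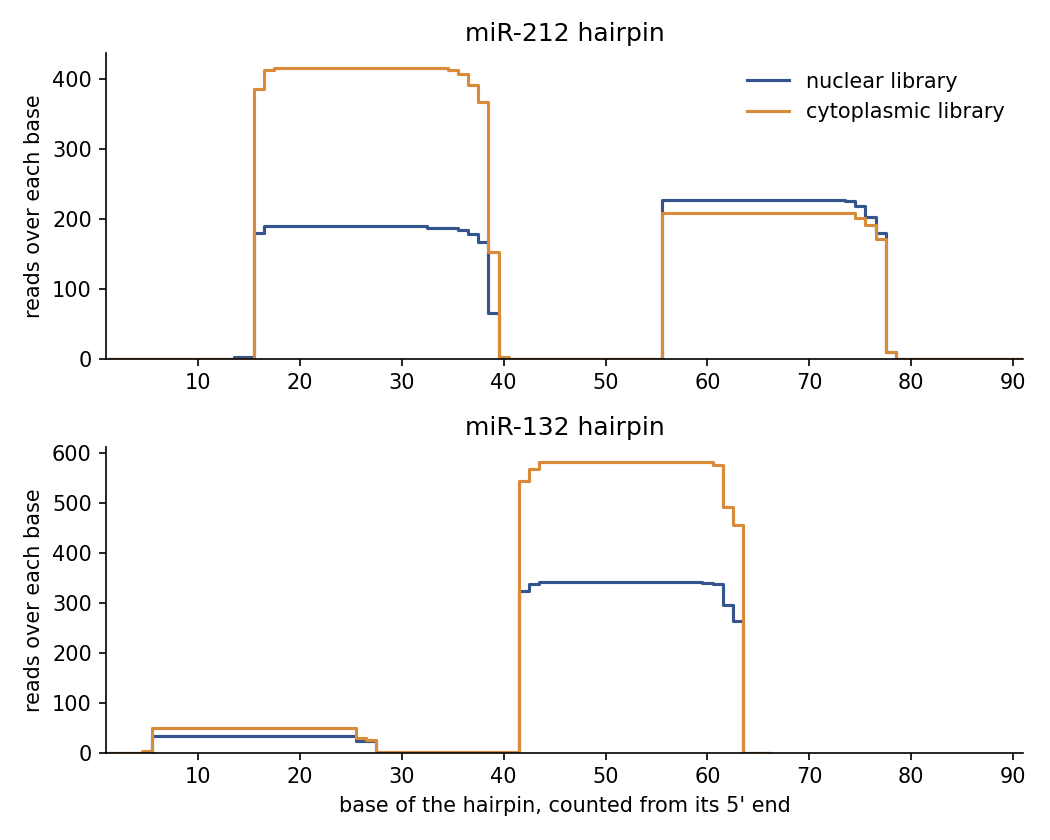
Reads that cover each base of the miR-212 (91 bases) and miR-132 (66 bases) hairpins in each library, counted from the 5′ end. Both arms of miR-212 carry reads, with the 5p block at up to 416 cytoplasmic reads, while the miR-132 reads lie mainly on the 3p arm.

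The 5′ end, which sets the seed, was as annotated for 3 of the 4 arms. For miR-212-3p all 226 nuclear and all 208 cytoplasmic reads began at base 56 of the hairpin. For miR-132-3p 94.7% (91.8 to 96.9) of nuclear and 92.6% (90.2 to 94.6) of cytoplasmic reads began at base 42. A start 1 base later, at base 43, took 3.80% and 4.10%, and a start 2 bases later took 1.46% (0.476 to 3.38) and 2.91% (1.70 to 4.61). For miR-212-5p 94.2% (89.8 to 97.1) and 92.5% (89.6 to 94.9) began at base 16. The shares overlap between the libraries in each case.

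miR-132-5p was different from its annotation. Of its reads, 31 of 33 nuclear and 46 of 50 cytoplasmic began at base 6 of the hairpin, 1 base after the annotated start at base 5, and the exact RefSeq mature sequence had 0 reads in either library. The sequences that gave most of its reads are shown because their shifted start changes the seed.
miR-132-5p, most abundant: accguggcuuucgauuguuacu
miR-132-5p, shorter: accguggcuuucgauuguua
miR-132-5p, annotated start: aaccguggcuuucgauuguua
The first had 22 nuclear and 24 cytoplasmic reads, the shorter one 8 and 18, and the one with the annotated start 2 and 3. Bases 2 to 8 from the shifted start are CCGUGGC, a seed that none of the 1738 RefSeq mature miRNAs has. Another sequence, accguggcuuucgauuguuac, which ended 1 base before the most abundant one, had 0 and 3 reads.

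The 3′ ends varied more than the 5′ ends, in part through bases that do not match the hairpin. Such bases can be added after Dicer cleavage by nucleotidyl transferases, mostly U or A. A mismatch within the last 3 bases of a read is counted the same way, whatever follows it. The shares of tailed reads below may therefore include mismatches or sequencing errors. The most abundant sequences of the other 3 arms are shown with unmatched bases in capitals.
miR-132-3p, annotated: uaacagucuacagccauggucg
miR-132-3p with U: uaacagucuacagccauggucgU
miR-132-3p, shorter: uaacagucuacagccauggu
miR-132-3p with A: uaacagucuacagccauggucgA
miR-212-5p, annotated: accuuggcucuagacugcuuacu
miR-212-5p, longer: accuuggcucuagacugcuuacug
miR-212-5p, longer with U: accuuggcucuagacugcuuacugU
miR-212-3p, annotated: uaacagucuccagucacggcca
miR-212-3p with U: uaacagucuccagucacggccaU
miR-212-3p with A: uaacagucuccagucacggccaA
miR-212-3p, shorter: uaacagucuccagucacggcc
In all 3 arms the annotated mature sequence was the most abundant in both libraries.

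For miR-132-3p the annotated sequence had 124 nuclear and 225 cytoplasmic reads, the form with U 81 and 143, the shorter form 35 and 70, and the form with A 25 and 35. For miR-212-5p the annotated sequence had 97 and 188 reads, the longer form 29 and 74, and the longer form with U 20 and 51. For miR-212-3p the annotated sequence had 88 and 78 reads, the form with U 40 and 35, the form with A 23 and 20, and the shorter form 18 and 11. The log2 ratios of the forms, as point values, lay between -0.96 and -0.45 for the forms of miR-132-3p, between -1.31 and -0.92 for those of miR-212-5p, and between 0.20 and 0.72 for those of miR-212-3p, so the first 2 ranges overlap. The intervals of all 4 forms of miR-212-3p and of miR-132-3p with A include equal levels.

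Reads with unmatched 3′ bases were common on the 3p arms of both hairpins. They made up 47.7% (42.3 to 53.1) of nuclear and 41.9% (37.8 to 46.0) of cytoplasmic reads of miR-132-3p, and 45.6% (38.96 to 52.3) and 48.1% (41.1 to 55.1) of those of miR-212-3p. On miR-212-5p they were fewer, 20.6% (15.1 to 27.1) and 22.6% (18.7 to 26.9). On miR-132-5p only 1 nuclear read had such a tail. The shares overlap between the libraries for each arm.

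Tails of U alone were the larger class. They took 26.6% of nuclear and 29.4% of cytoplasmic reads of miR-132-3p, 24.3% and 24.0% of miR-212-3p, and 12.7% and 14.4% of miR-212-5p. Tails of A alone took 15.2% (11.6 to 19.5) of nuclear and 9.57% (7.31 to 12.3) of cytoplasmic reads of miR-132-3p, an odds ratio of 1.69 (1.11 to 2.59). This was the only 1 of 12 odds ratios for tails and 5′ ends whose interval excluded 1, with no correction for their number, and the intervals of the shares overlap. For miR-212-3p the A shares were 17.3% and 15.9%, and for miR-212-5p 5.29% and 5.53%.

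**Figure D5:**
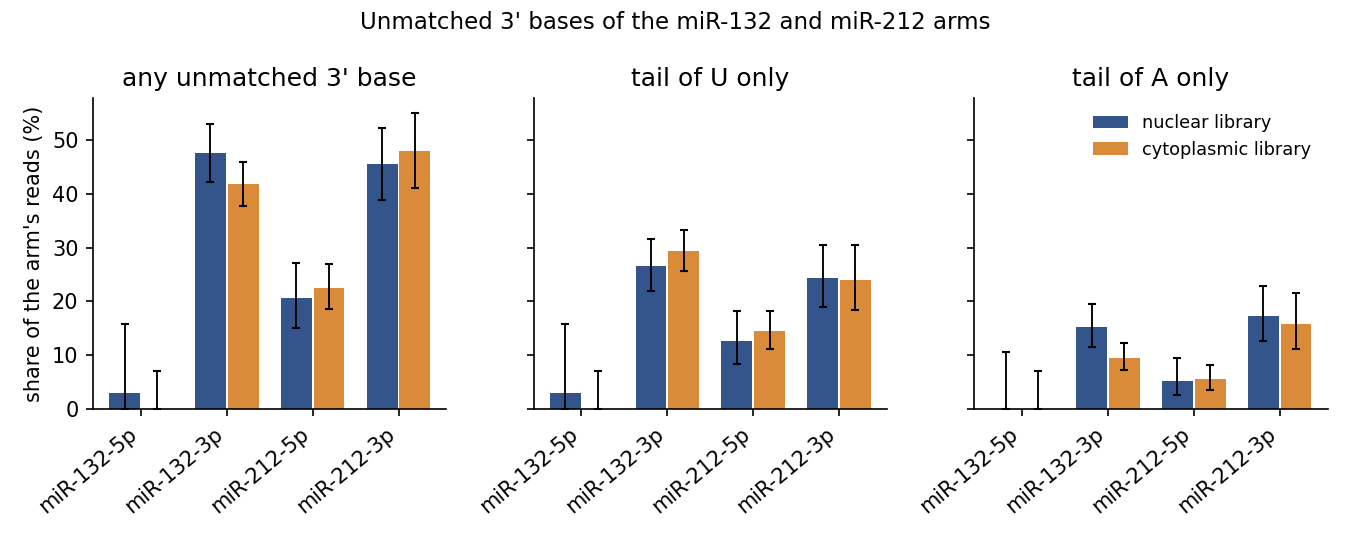
Percent of the reads of each of the 4 arms with any unmatched 3′ base, a tail of U only or a tail of A only in each library (bars), with exact 95% intervals for counting error. The 3p arms carry more tailed reads than miR-212-5p, and the A tails of miR-132-3p stand at 15.2% nuclear and 9.57% cytoplasmic.

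The matched part of the reads ended at base 63 of the hairpin for 77.2% of nuclear and 78.1% of cytoplasmic reads of miR-132-3p, and at base 77 for 75.2% and 77.9% of miR-212-3p. miR-212-5p had 2 common ends, base 38 with 54.0% and 51.7% and base 39 with 33.9% and 36.1%. In a predicted fold of the Mir132 hairpin (ViennaRNA, -37.2 kcal/mol), base 6, the observed start of miR-132-5p, pairs with base 61, so the common end of miR-132-3p lies 2 bases past that partner. At the loop side the start of miR-132-3p pairs with base 25 and the commonest end of miR-132-5p, base 27 (69.7% of nuclear and 48% of cytoplasmic reads), also lies 2 bases past it. Its other common end, with 30.3% and 44%, is base 25 itself and leaves no overhang. In the Mir212 hairpin (-41.5 kcal/mol) the observed start of miR-212-5p, base 16, is unpaired, so an overhang cannot be counted from it as in Mir132. The first paired base of miR-212-5p, base 17, pairs with base 74, and the common end of miR-212-3p lies 3 bases past that partner. This count is from base 17 and not from the start of the arm. At the loop side of Mir212 the start of miR-212-3p pairs with base 36 and the commonest end of miR-212-5p, base 38, lies 2 bases past it. The other common end of miR-212-5p, base 39, with 33.9% and 36.1%, lies beyond that. Drosha and Dicer are known to leave 3′ overhangs of 2 bases.

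The other LPS-induced miRNAs give a setting for these values. A list of miRNAs known to respond to LPS was chosen with earlier results of these data known. Of its 28 arms 20 were measured, and their median log2 ratio was -1.05. In the nuclear library 11 of them were called lower and 0 higher. Without the miR-132 and miR-212 arms, 10 of 16 were called lower and the median was -1.15, beside 28.4% and -0.63 for all 222. Under the miRNA total, TMM factors and the median of ratios the 20 arms gave 1 call lower each and 2, 1 and 1 calls higher. All 222 arms gave 9, 13 and 17 calls lower and 47, 41 and 40 higher under these scalings.

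Within that list miR-212-5p (-1.11) lay near miR-222-3p (-1.17), miR-147-5p (-1.13) and miR-9-5p (-1.001). miR-132-3p (-0.74) lay between let-7e-5p (-0.96) and miR-147-3p (-0.60). miR-21a-5p (-1.98), miR-221-3p (-1.55), miR-146b-5p (-1.54) and miR-146-5p (-1.50), the last pair being known brakes on Toll-like receptor signalling, were more cytoplasmic than any of the 4 arms. Further lower calls went to miR-99b-5p (-1.40), miR-9-3p (-1.32) and miR-21a-3p (-1.20). miR-212-3p (0.15) was above every measured arm of the list but miR-155-5p (0.47), and miR-125a-5p (-0.14), miR-187-3p (-0.21) and miR-221-5p (-0.34) were closest below it.

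Arms from 1 cluster differed elsewhere as well. The log2 ratios of the 4 miR-132 and miR-212 arms spanned 1.26, from -1.11 to 0.15. The span was 1.76 for miR-15a and miR-16, 1.26 for miR-99b, let-7e and miR-125a, 1.21 for miR-221 and miR-222, 0.92 for miR-23a, miR-27a and miR-24, and 0.78 or less for the other 3 clusters compared. These spans rest on 2 to 5 measured arms each. The miR-16, miR-24 and miR-29b arms pool all copies of those hairpins, not only the copy in the cluster. The spans of their clusters may therefore include reads from other loci. The miR-27a-3p value leaves out the reads that match miR-27b-3p as well (6251 nuclear and 15227 cytoplasmic, at -1.25).

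By likeness of the log2 ratio alone, over 2 libraries and 221 other arms, the nearest to miR-212-3p were miR-744-5p (0.17), miR-484-5p (0.12) and miR-15b-5p (0.20). The nearest to miR-212-5p were miR-25-3p (-1.11), a small group of reads that match miR-378a-3p, miR-378b-3p and miR-378c-5p alike (22 nuclear and 49 cytoplasmic reads, -1.11), and miR-5114-5p (-1.09). The reads that match miR-378a-3p alone were at -1.75, away from miR-212-5p. Those nearest to miR-132-3p were miR-1983-3p, miR-200b-3p and miR-1948-3p, each at -0.74 or -0.75.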

How the data were processed

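Small RNA was sequenced from 1 nuclear and 1 cytoplasmic sample, with the mirVana kit and Illumina's small RNA library protocol, per the labels' protocols. The authors deposited 1 table of sequences (18 to 39 nt) with an RPM value in each library. CASAVA and build mm10 are named per the submitters' processing notes. No source used here states adapter trimming or filters. Columns were assigned to samples by the N or C that ends their names. RPM values were divided by the value of 1 read (0.500 nuclear, 0.490 cytoplasmic), and 100% came out whole within 0.1 read.

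Sequences were matched to GENCODE vM21 miRNA hairpins (at least 18 matched bases, up to 3 unmatched 3′ bases) and assigned to an arm by their midpoint. Both hairpins and all 4 mature arms were found in the RefSeq table. Arms with 50 reads or more over both libraries were measured, and 0.5 reads were added for log2 ratios. No count model could be fitted with 1 library in each group. Intervals are exact at 95%. The alternatives were scaling to the miRNA total, TMM factors and the median of ratios, other matching rules, read minimums of 20 and 1, and a pseudocount of 1 read. The members and lists were chosen with earlier results of these data known. The text names the 4 arms, their 3 most abundant sequences and those with 5% of an arm's reads, the measured arms of the LPS list, and the 3 arms nearest in log2 ratio. The matching, the intervals of the level ratio and the calls were tested on simulated data, which held counting error only. The other steps were not tested in this way. Tools were Python 3.11.15, pandas 2.3.3, NumPy 2.4.6, SciPy 1.17.1, matplotlib 3.10.9, ViennaRNA 2.7.2 (37 °C), R 4.3.3 and edgeR 4.0.16 (TMM factors).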

Additional observations from a re-analysis of the deposited data

How the results depend on the processing

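Of 71 alternative values 47 stayed within counting error or, for counts of calls, at a similar size, and 24 moved further. A count of similar size could be 130 arms in place of 90, with a minimum of 20 reads. A reversal could be counted only for a called arm or for a ratio between arms whose interval excluded 1, and 0 were. The sign of an arm that was not called could turn without being counted, as for miR-132-3p from -0.74 to 0.16. Scaling moved the levels: under the miRNA total, TMM factors and the median of ratios in turn, the log2 ratio was 0.16, -0.015 and -0.11 for miR-132-3p, 1.05, 0.88 and 0.79 for miR-212-3p, and -0.20, -0.38 and -0.47 for miR-212-5p. For miR-132-5p it was 0.34 under the miRNA total and 0.17 under TMM factors. The number of arms called was 56, 54 and 57 in place of 90, and that of LPS-induced arms 3, 2 and 2 in place of 11. With no minimum of reads 158 of 775 arms were called. With full-length matches only, the nuclear and cytoplasmic 3p shares were 84.8% and 87.2% for miR-132 and 45.1% and 25.1% for miR-212, and miR-212 gave 56.4% and 52.4% of the reads of both hairpins, since tails are commoner on the 3p arms. With its most abundant sequence alone miR-212-5p was at -0.92, short of a call. Reads with 1 mismatch, an alternative chosen after seeing the data, moved no value by more than its error, but the interval of miR-132-5p then excluded 0 (-1.42 to -0.12). No paired analysis was possible because each group has 1 library, which also leaves no replicate to omit. Depth limits miR-132-5p most, with 33 and 50 reads.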
